A study of Mus musculus with 2 samples.

Results

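The genes described here are G protein-coupled receptor genes found by their symbols. They comprise the adrenergic (Adra, Adrb), serotonin (Htr1 to Htr7), dopamine (Drd), muscarinic acetylcholine (Chrm), sphingosine 1-phosphate (S1pr) and lysophosphatidic acid (Lpar) receptors, and every gene whose symbol is Gpr followed by a number. The deposited table held 128 such RefSeq entries of 24165 in all, belonging to 107 of 20128 gene symbols. By family there were 11 adrenergic, 14 serotonin, 6 dopamine, 4 muscarinic, 5 sphingosine 1-phosphate, 9 lysophosphatidic acid and 79 Gpr-numbered entries. The rule also takes in genes that are not receptors of this kind. Htr3a and Htr3b encode subunits of a serotonin-gated ion channel, and 8 Gpr-numbered genes encode multi-pass membrane proteins outside the usual receptor classes.

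The cells were untreated C2C12 myoblasts, an established mouse line of muscle precursors that fuse into fibres when serum is withdrawn. They were grown in medium with fetal bovine serum to 80% confluency, with 4 plates for each nuclei isolation, and carried no transgene or deletion that the labels name. In global run-on sequencing (GRO-seq), engaged polymerases in isolated nuclei extend their transcripts with bromouridine, and the captured RNA shows where and on which strand they were transcribing. The authors pooled the 2 replicate libraries and deposited a single gene activity per entry in RPKmM, an RPKM value of sense-strand reads over the mappable bases of the gene body. Entries whose reads were not significantly denser than those of gene deserts, in the authors' Poisson comparison, carry the word Inactive in place of a number. The values are per length, so levels of different genes can be set side by side. The active call is not, because at the same read density a longer gene holds more reads and is called more easily. An Inactive short gene need not have a lower density than a long gene with a value near 0. With a single pooled value per entry there is no replicate error and no test between genes. The table holds no read counts, and no read depth was used here. All 7 myoblast markers were active, from 2.39 RPKmM for Myod1 to 146.13 for Vim. Of other cell types, 3 of 4 fibroblast markers were active (highest Pdgfrb, 2.0), 3 of 5 neuronal (highest Stmn2, 0.61), 1 of 4 leucocyte (0.01), 2 of 4 endothelial (0.01) and 0 of 3 adipocyte markers. Activity was measured over all cells of the culture, so a gene transcribed in few cells cannot be told apart from a gene transcribed weakly in all.

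G protein-coupled receptors span the membrane several times and pass the binding of an extracellular ligand to heterotrimeric G proteins. Gs raises and Gi lowers cyclic AMP, Gq activates phospholipase C, and G12 and G13 act on the actin cytoskeleton. Aminergic receptors bind adrenaline, noradrenaline, serotonin, dopamine or acetylcholine, and are best known from neurons, heart, smooth muscle and glands. Sphingosine 1-phosphate and lysophosphatidic acid are lysophospholipids of blood serum that act on growth, shape and movement of many cells, myoblasts included. Most Gpr-numbered genes were named as orphans, receptors without a known ligand, and some have since been given one.

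The promoters shown here are those of a strongly transcribed receptor (S1pr2), an inactive receptor of the same family (S1pr5), an inactive dopamine receptor (Drd5) and an active receptor gene with few CpG dinucleotides (Lpar6). They were picked after their values were seen, and no inactive gene with a CpG-poor promoter is among them. Each line holds the 100 bases just before the annotated start, read 5′ to 3′ in the direction of transcription from the mm9 genome, with CpG dinucleotides in capitals. For all 4 genes the GENCODE and RefSeq starts were the same base.
S1pr2, chr9:20781238-20781337, minus strand: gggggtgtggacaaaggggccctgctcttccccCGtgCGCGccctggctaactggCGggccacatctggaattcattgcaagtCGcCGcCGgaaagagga
S1pr5, chr9:21052888-21052987, minus strand: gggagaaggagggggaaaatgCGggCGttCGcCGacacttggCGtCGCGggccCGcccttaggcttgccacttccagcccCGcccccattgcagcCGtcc
Drd5, chr5:38710648-38710747, plus strand: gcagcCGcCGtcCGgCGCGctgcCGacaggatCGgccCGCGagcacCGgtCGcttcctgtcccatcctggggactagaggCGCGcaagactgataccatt
Lpar6, chr14:73637598-73637697, plus strand: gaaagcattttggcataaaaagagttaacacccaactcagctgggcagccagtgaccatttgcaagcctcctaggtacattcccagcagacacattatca
These 100 bases held 7 CpG in S1pr2, 10 in S1pr5, 13 in Drd5 and 0 in Lpar6. Over 18694 gene symbols with a promoter in the annotation, 88.8% had at least 1 CpG in this window, and the median was 6. The dinucleotide CG reads the same on both strands, and overlaps no other motif searched.

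Receptor genes were less often active than the rest of the table, and those that were active were mostly transcribed at low levels. Of the 128 entries, 64 (50%) were active, against 70.2% of all entries. By symbol, 50 of 107 (46.7%) had an active entry, against 68.7% of all symbols. The active receptor entries had a median of 0.12 RPKmM (quartiles 0.03 and 0.945), and all 16957 active entries had 0.87 (quartiles 0.22 and 1.99), a ratio of 7.25. Among active receptor entries 27 (42.2%) lay below 0.1, against 18.5% of all active entries. Values of 0.1 or more were found in 37 receptor entries (28.9%), against 57.2% of all entries, and values of 1 or more in 16 (12.5%), against 32.3%. By symbol, 27 receptor genes (25.2%) reached 0.1 and 11 reached 1, against 55.7% and 31.6% of all symbols. At 3 and above, a single receptor entry was left (0.781%), that of S1pr2, against 10.8% of all entries. These shares describe the pooled libraries and were not tested.

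**Figure D1:**
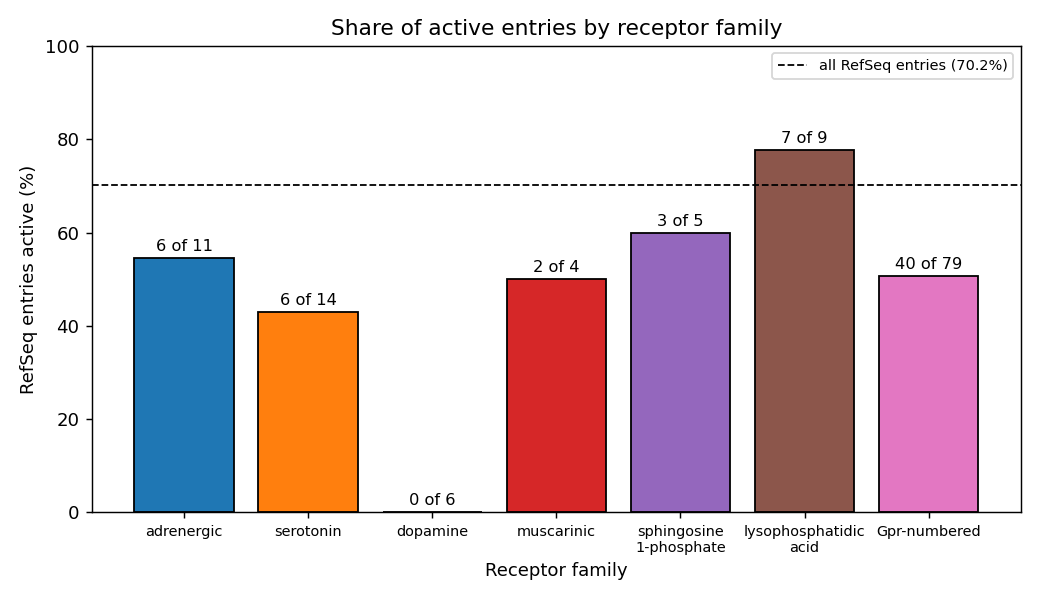
Share of RefSeq entries that the authors called active (y axis, percent) in each receptor family (x axis), with the number active of all entries above each bar and a dashed line at 70.2%, the share over all entries. The lysophosphatidic acid family, at 7 of 9 entries, is the only bar above the line, and the dopamine family has no active entry.

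Of the adrenergic receptors, 6 of 11 entries (54.5%) were active. Adrb1, the main beta receptor of the heart, had 0.15 RPKmM, higher than 21.5% of all active entries, and Adrb3, known from fat cells, was inactive. Among the Gq-coupled alpha1 receptors, the entries of Adra1b had 0.12 and 0.06, Adra1d had 0.1, and both entries of Adra1a were inactive. Of the Gi-coupled alpha2 receptors Adra2a had 0.02, while Adra2b and Adra2c were inactive.

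The serotonin receptors were active at low levels only. The Gq-coupled Htr2b, which is found in many tissues outside the brain, was highest with 0.07 RPKmM, and Htr2a had 0.01 while Htr2c was inactive. The Gs-coupled Htr7 had 0.04 and Htr6 had 0.03, and Htr4 was inactive. Of the Gi-coupled group both entries of Htr1d had 0.01, and Htr1a, Htr1f, Htr5a and Htr5b were inactive. Both ion channel subunits, Htr3a and Htr3b, were inactive. In all 6 of 14 entries (42.9%) were called active, and none of them reached 0.1.

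No dopamine receptor was active. All 6 entries, of the Gs-coupled Drd1 and Drd5 and of the Gi-coupled Drd2, Drd3 and Drd4, were listed as Inactive. Of the muscarinic receptors, Chrm4 had 0.03 RPKmM, Chrm3 was called active with a value that rounds to 0, and Chrm1 and Chrm2 were inactive. Chrm5 and Htr1b were not analysed here. Together the 35 aminergic entries had 14 active (40%), with a median of 0.035 among them, and 4 of the 14 reached 0.1.

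The lysophospholipid receptors held the highest values of the named ligand families. S1pr2 (NM_010333), which couples to Gq, G12 and G13 among others, had 3.07 RPKmM, higher than 85.0% of all active entries and 3.53 times their median. The annotated gene spans chr9:20770396-20781237 in mm9 and has up to 2 exons, read from the minus strand. S1pr1, a Gi-coupled receptor known from endothelial cells and lymphocytes, had 0.9, close to the median of all active entries. S1pr3 had 0.38. S1pr4, known from blood cells, and S1pr5, known from oligodendrocytes and natural killer cells, were inactive.

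Of the lysophosphatidic acid receptors Lpar1 was the most active. Its entries had 1.6, 1.55 and 1.52 RPKmM over a gene of 118644 bases on chromosome 4. Lpar2 had 0.37 and Lpar3 had 0.05, so all 3 receptors of the Edg group, which are close relatives of the sphingosine 1-phosphate receptors, were active. In the group related to P2Y receptors, Lpar6 had 0.75, Lpar4 had 0.06, and both entries of Lpar5 were inactive. Taken as a group, 10 of 14 lysophospholipid entries (71.4%) were active with a median of 0.825, and 5 of them lay at or above the median of all active entries. By symbol 8 of 11 (72.7%) were active, against 12 of 31 (38.7%) of the aminergic genes. The share of lysophospholipid entries is near the 70.2% of the whole table.

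**Figure D2:**
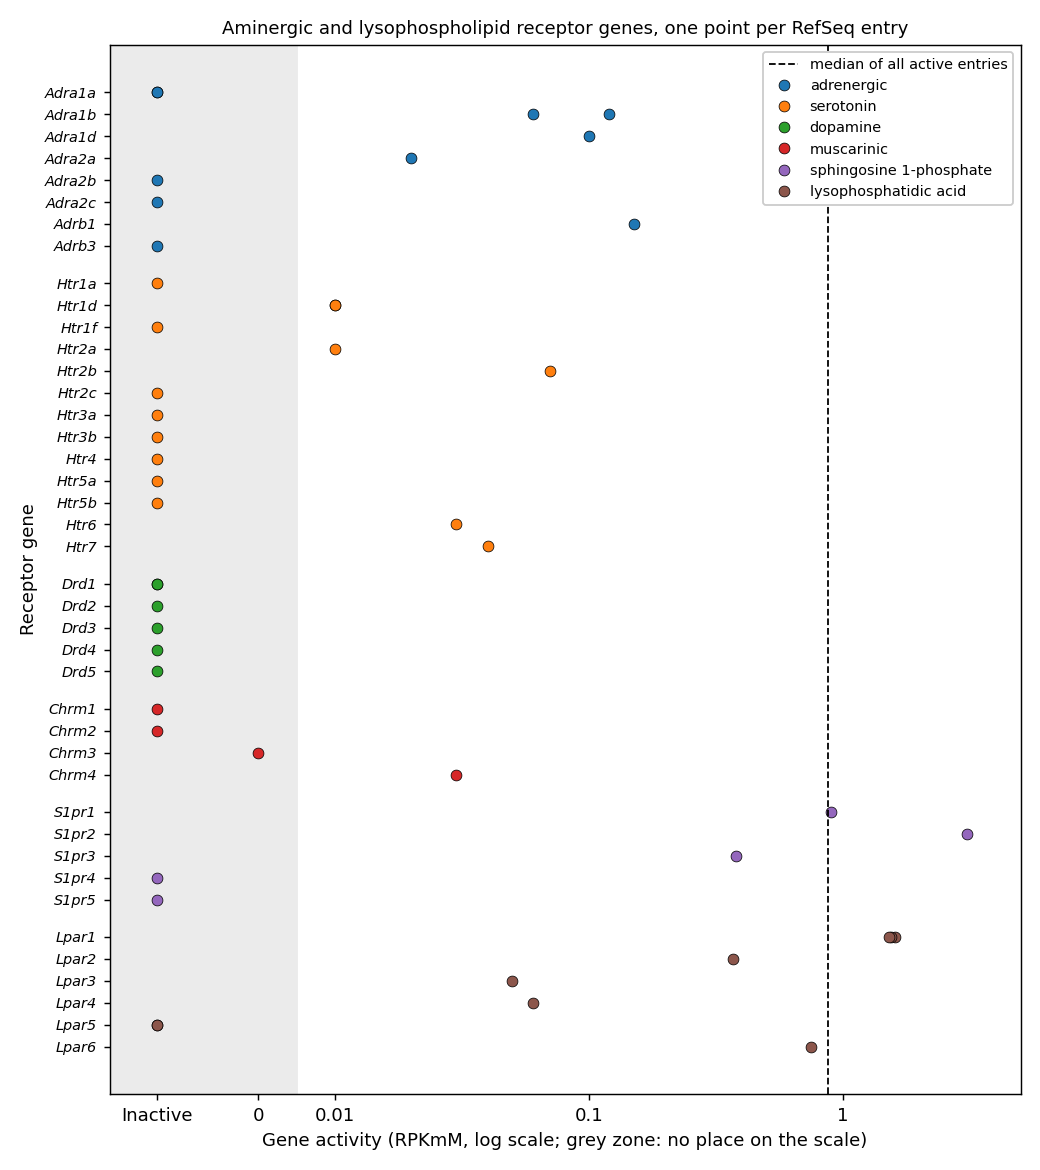
Gene activity (x axis, RPKmM on a log scale) of 41 aminergic and lysophospholipid receptor genes (y axis), with a point per RefSeq entry, colours for families and a dashed line at 0.87, the median of all active entries. Inactive entries and values listed at 0 stand in the grey zone, where the scale does not hold. Points right of the line are S1pr1, S1pr2 and the entries of Lpar1.

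The Gpr-numbered genes divided by type. All 8 genes for multi-pass proteins outside the usual receptor classes were active, with 11 of 11 entries and a median of 1.14 RPKmM. The remaining 57 Gpr-numbered genes, which are receptors or presumed receptors, had 22 active (38.6%) and a median of 0.1 over 29 active entries. The highest of all was Gpr137b, which encodes a lysosomal membrane protein, at 2.55. Its relative Gpr137 had 2.17, 1.08 and 0.62 at its 3 entries, and Gpr137c had 0.09. Gpr108 and Gpr107, proteins of the Golgi apparatus, had 1.86 and 1.83 at the 2 entries of Gpr108 and 1.14 for Gpr107. Gpr89, known as a regulator of Golgi pH, had 1.33. Gpr180 had 0.5 and Gpr155, a lysosomal protein, 0.23.

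Among the presumed receptors 3 genes reached 1 RPKmM. Gpr173 had 2.46, higher than 80.4% of all active entries. It belongs to a highly conserved group of orphan receptors known from the brain, of which Gpr85 had 0.08. Gpr39, a receptor that responds to zinc, had 1.14 over a gene of 196868 bases on the plus strand of chromosome 1. Gpr161, which restrains Hedgehog signalling at the primary cilium, had 1.12 and 1.08 at its entries. Below these stood Gpr63 with 0.56, Gpr21 with 0.53, Gpr153 with 0.36, Gpr146 with 0.27 and 0.23, and Gpr19 with 0.16, 0.16, 0.1 and 0.1.

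Of 4 smaller receptor lists (lipid or metabolite, proton-sensing, constitutively active and class C), no active entry exceeded 0.04 RPKmM. Of the genes for receptors of lipids or small metabolites, 2 of 9 were active, Gpr35 (0.03, 0.02 and 0.02 RPKmM) and Gpr84 (0.01). Of the proton-sensing receptors Gpr132 was active, with 0.04, and Gpr4 and Gpr65 were not. Gpr3, which raises cyclic AMP without a ligand, had 0.02, and both entries of its relative Gpr12 were inactive. Of the class C orphans Gpr179 had 0.02 and Gpr158 was inactive.

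**Figure D3:**
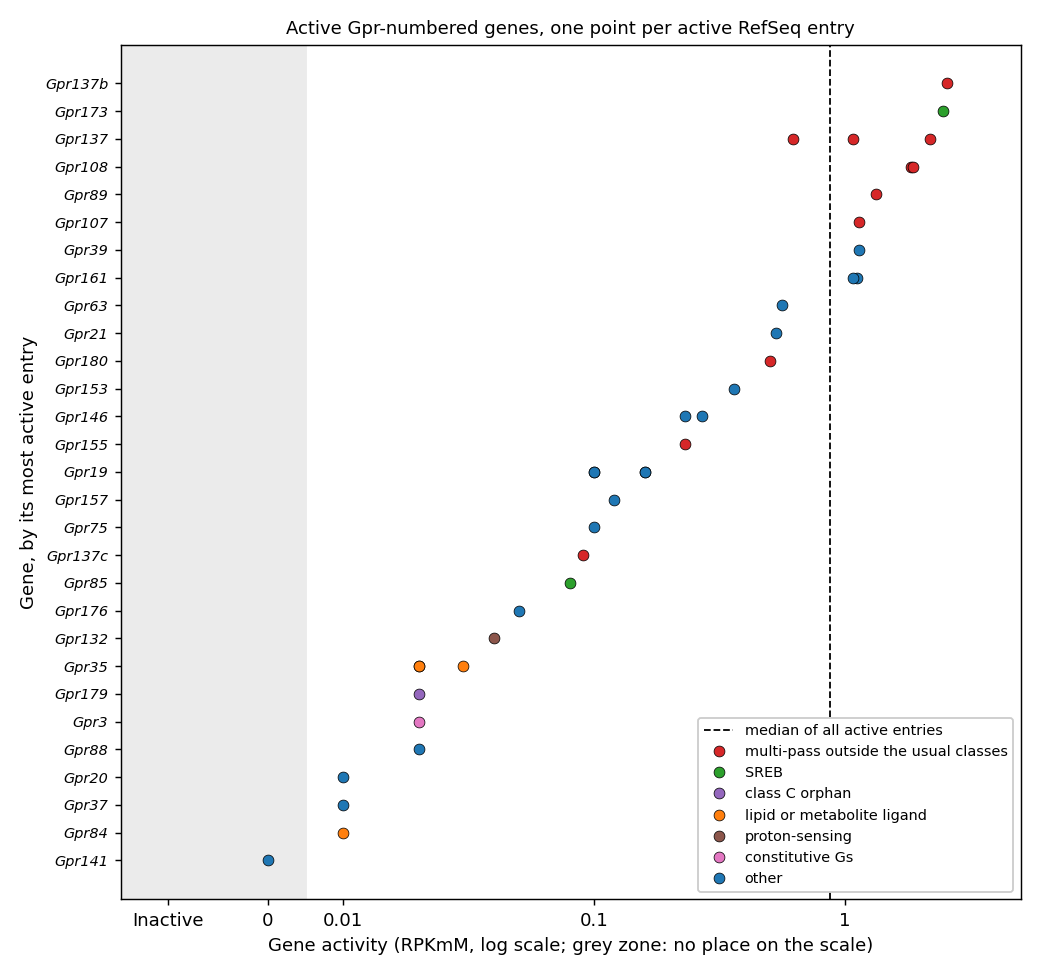
Gene activity (x axis, RPKmM on a log scale) of 29 active Gpr-numbered genes (y axis, in order of their most active entry), with a point per active entry and colours for the type of protein. Values of 0 stand in the grey zone. Of the 8 genes with an entry right of the dashed line at 0.87, the median of all active entries, 5 encode multi-pass proteins outside the usual classes.

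Several entries of a gene gave similar values. The 15 receptor symbols with several entries had 36 entries, and in no symbol did an active stand beside an inactive entry. In 9 symbols all entries were active and in 6 none was. The highest and lowest entry differed by at most 2-fold in 8 of these 9, and by 3.5-fold in Gpr137. Gpr137 overlaps Bad, which is transcribed from the opposite strand at 3.11 RPKmM. Any link between this overlap and the spread of the Gpr137 entries was not tested. Entries of a symbol belong to the same gene and are not independent measurements.

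Some receptor genes lie inside or beside other transcribed genes, and those values stand beside their own. Of 106 receptor symbols placed on the mm9 annotation (GENCODE vM1), 5 overlap another gene of the same strand that is no small RNA gene, Gpr21, Gpr63, Gpr146 and Lpar1 among them. Gpr21 lies wholly within Rabgap1, transcribed in the same direction at 1.95 RPKmM, so reads of both cannot be told apart over Gpr21. Gpr146 overlaps D830046C22Rik of the same strand, listed at 0.1. The genes that overlap Gpr63 and Lpar1 on their strand are not in the table.

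In all, 11 symbols lie within an active protein-coding gene of the opposite strand (Gpr21 and Gpr146 among them). Of the 11, 4 were active (36.4%), against 47.2% of the 106 placed receptor symbols. The share over all symbols placed in this way was not computed. Lpar6 (0.75 RPKmM) lies within Rb1 (0.8), and Htr2b (0.07) within Psmd1 (2.59). By contrast Gpr18 and Gpr183 were inactive within Ubac2 (0.99), Gpr34 and Gpr82 within Cask (0.85), Gpr22 within Cog5 (0.48), Gpr17 within Lims2 (0.13) and Gpr26 within Fgfr2 (0.03). The reads are assigned by strand, and the part of the host genes in these values was not tested.

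An active gene of the same strand ended within 10 kb upstream of 14 receptor symbols, of which 6 were active (42.9%), against 44 of 92 (47.8%) without such a neighbour. The active ones were Gpr153 (0.36 RPKmM, behind Acot7 at 1.58), Lpar2 (0.37, behind Gmip at 0.85), Gpr75 (0.1, behind Psme4 at 3.47), Chrm4 (0.03, behind Ambra1 at 1.81), Htr6 (0.03, behind Nbl1 at 5.09) and Gpr84 (0.01, behind Zfp385a at 0.21). The gene end nearest to a receptor gene was that of Gmip, 559 bases before Lpar2. Transcription past the end of a neighbour would be counted as the receptor's, and its part in these values was not tested.

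Promoter CpG content was set against the calls, as a feature that the choice of genes did not use. Windows from 250 bases before to 50 after the annotated start were read for 104 receptor symbols whose annotated gene reached 2 kb. The ratio of observed to expected CpG had a median of 0.573 (quartiles 0.31 and 0.742) in 49 active and 0.361 (0.198 and 0.62) in 55 inactive receptor genes. Over all gene symbols it was 0.729 in active and 0.274 in inactive genes. Calling a promoter CpG-dense at a ratio of at least 0.6 and at least 50% G and C, 22 of 49 active receptor genes (44.9%) and 13 of 55 inactive ones (23.6%) were dense, against 61.5% and 17.4% over all symbols.

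Read the other way, 22 of 35 receptor genes with a dense promoter were active (62.9%), against 89.6% of all such symbols. Without one, 27 of 69 were active (39.1%), against 53.2%. Among the printed promoters, the ratio over the 300-base window was 0.669 for S1pr2, 0.75 for S1pr5, 1.02 for Drd5 and 0.0868 for Lpar6. Drd5, with 38 CpG, had a higher ratio than 93.1% of all symbols and was inactive, whereas Lpar6, with 1 CpG, had a higher ratio than only 6.40% and was active. Lpar6 lies within Rb1, as given above.

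**Figure D4:**
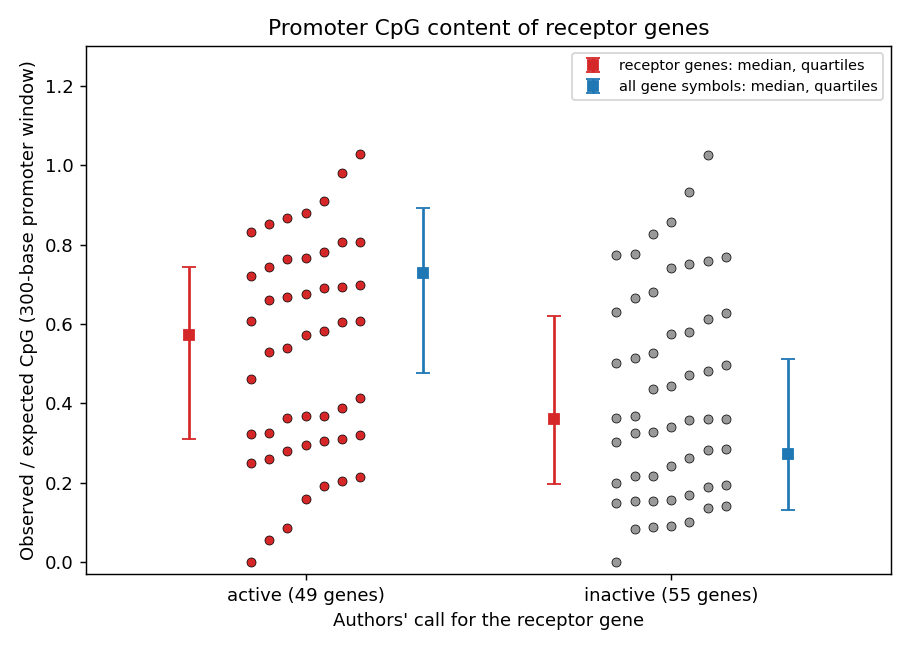
Ratio of observed to expected CpG in the 300-base promoter window (y axis) of active and inactive receptor genes (x axis), with a point per gene. Squares and bars are the median and quartiles, in red for receptor genes and in blue for all gene symbols. The receptor medians, 0.573 and 0.361, lie closer together than those of all symbols, 0.729 and 0.274.

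The calls were also set against gene length. Receptor genes were less often active than all symbols in each of 5 length classes. The values were 47.6% against 56.6% from 2 to under 5 kb, 4 of 21 genes against 62.8% from 5 to under 10 kb and 60.6% against 73.1% from 10 to under 30 kb. They were 60% against 78.2% from 30 to under 100 kb and 33.3% against 73.9% at 100 kb and over. The last class holds 9 receptor genes, and the others hold 20 to 33.

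A list of proteins that receptors signal through was active more often than the receptors. The list was chosen by hand and does not hold every member of each gene family. Of 70 symbols for G protein subunits, effectors, kinases, arrestins and regulators, 58 (82.9%) were active, against 68.7% of all symbols. At 0.1 RPKmM or above the shares were 60% and 55.7%. The active partners had a median of 0.655 over the most active entry of each symbol, and all active entries had 0.87. All 13 listed G alpha genes were active, from 16.04 for the most active entry of Gnas, which encodes Gs alpha, to 0.01 for Gnai1 and Gna15. Among beta and gamma subunits 12 of 14 were active, from 13.45 for Gnb2 to 0.01 for Gng4, and Gnb3 and Gng3 were inactive.

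Of the effectors, 5 of 9 adenylyl cyclases were active, from 7.3 RPKmM for Adcy7 to 0.01 for Adcy4, while Adcy1, Adcy2, Adcy5 and Adcy8 were inactive. Phospholipase C beta ranged from 7.32 for Plcb3 to 0.22 for Plcb1, and Plcb2 was inactive. All 4 listed guanine nucleotide exchange factors, which act downstream of G12 and G13, were active, from 1.09 for Arhgef11 to 4.04 for Arhgef12. Receptor kinases and arrestins were active in 7 of 8 cases, from 2.53 for Grk6 to 0.01 for Grk1, and Adrbk2 was inactive. RGS genes, whose products speed GTP hydrolysis by G alpha, were active in 14 of 18 cases with a median of 0.07. Rgs12 was highest with 2.68, and Rgs5 and Rgs8 were listed at 0.

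**Figure D5:**
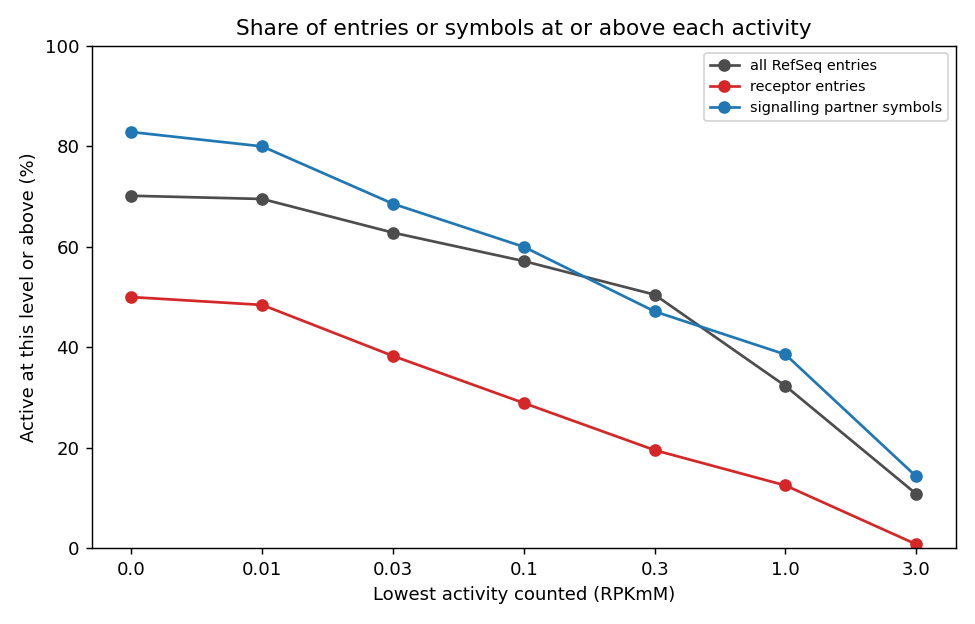
Share of all RefSeq entries, receptor entries and signalling partner symbols (y axis, percent) listed as active at or above each activity (x axis, RPKmM, unevenly spaced levels). The receptor line lies below both others at every level, and falls from 50% at 0 to 12.5% at 1 and 0.781% at 3.

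Enzymes and transporters of the ligands differed by ligand. For the lysophospholipids 8 of 10 symbols were active. The sphingosine kinases Sphk2 and Sphk1 had 0.81 and 0.8 RPKmM at their most active entries, and the lyase Sgpl1, which degrades sphingosine 1-phosphate, had 2.82. The phosphatases Plpp2, Plpp1, Sgpp1 and Plpp3 had 2.62, 1.36, 1.05 and 0.61. Enpp2, the main producer of extracellular lysophosphatidic acid, had 0.01, and the exporter Spns2 and the phosphatase Sgpp2 were inactive.

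For the amines 4 of 10 symbols were active, of which Ddc alone makes amines. Th, Dbh, Tph1, Tph2 and Chat, which make catecholamines, serotonin and acetylcholine, were inactive, and Ddc had 0.02 RPKmM. The degrading enzyme Maoa had 0.7, acetylcholinesterase (Ache) had 0.04, and Maob was inactive.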

How the data were processed

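A single table was analysed. Before they deposited it, the authors mapped reads of both libraries to mm9 with Bowtie2, trimmed and remapped failing reads, kept unique reads outside rRNA and tRNA repeats and combined the 2 libraries. Their activity, RPKmM, is an RPKM value over mappable bases, for sense reads starting 1 kb past the TSS. The submitters' processing notes also name CASAVA 1.8. Entries are rounded to 2 decimals, and 7208 hold the word Inactive, so the unit was taken from the header and the methods. Pooling hides the spread between libraries, and repeats or unmappable bases leave parts of genes uncounted.

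Members, lists and settings were chosen with earlier results of these data known. Counts, shares and medians were computed with Python 3.11.15, numpy 2.4.6, pandas 2.3.3 and scipy 1.17.1, and plotted with matplotlib 3.10.9. The calculation was tested on simulated data. Gene positions, exons and starts came from GENCODE vM1 (mm9), matched by symbol or RefSeq synonym for 18869 of 20128 symbols, 106 of 107 among receptors. RefSeq promoters (GRCm38.p6) matched 79 receptor symbols, 77 were found in mm9, and 62 began within 50 bases of the GENCODE start. A symbol's activity is that of its most active entry.

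Genes named are all aminergic and lysophospholipid receptors, the 15 most active Gpr symbols and all Gpr symbols at or above the median of active entries, the most active of each Gpr list, symbols whose entries differ 3-fold or more or in their call, the most and least active partners of each list, and all ligand enzymes. Some genes that this rule takes in are counted but not reported here by name or plotted singly. Other names give the context of a gene or complete a count of 5 or fewer, and were picked with their values in view. The alternatives changed the member set, the active call, overlap, chromosomes, transcript type, length, centre and promoter window.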

Additional observations from a re-analysis of the deposited data

How the results depend on the processing

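An alternative was taken as moved where it left the exact 95% binomial interval of a share (41.0% to 59.0% for entries). For a median the limit was its binomial interval (0.06 to 0.37 RPKmM), and for a count it was 1.5 times the count. These intervals treat entries as independent, which entries of a symbol are not. They serve as a yardstick only and measure no replicate error. No value reversed, and the median activity of active receptor entries stayed from 0.085 to 0.164 under all its alternatives. Counting as active only entries at 0.1 RPKmM or above moved most. It lowered the share of active entries to 28.9% and of active symbols to 25.2%, the active serotonin entries to 0, the muscarinic to 0 and the Gpr-numbered to 25, and the share of active signalling partners to 60%. At 0.01 or above, 1 muscarinic entry remained. With genes of at least 10 kb the share of active entries was 59.5%. By symbol it was 56.5%, against 75.1% of all symbols of that length. Overlap, upstream neighbours and promoter sources moved no value. Of these, the neighbours, the overlap without small RNA genes and the RefSeq promoters were chosen after seeing the data. Leaving out overlapping genes kept 114 of 128 entries, and leaving out those with upstream neighbours kept 112. Either way the shares could not have left their intervals, whatever the calls of the genes left out. For the shares these alternatives are therefore no check of overlap or neighbours. No paired analysis was possible because the replicates were pooled in the deposited values, and for the same reason neither replicate could be left out. Activities near 0.01 are at the rounding step, and no read depth was used.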

Other observations

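Receptor genes on the X chromosome were mostly silent. Of 11 such genes, Gpr173 (2.46 RPKmM) and Lpar4 (0.06) were active, and Gpr34, Gpr50, Gpr82, Gpr101, Gpr119, Gpr143, Gpr165, Gpr174 and Htr2c were inactive. The share of active genes was 18.2% on the X chromosome and 50.5% of 93 receptor genes on autosomes. Over all symbols it was 57.9% on the X chromosome and 71.5% on autosomes. The X-linked genes include neighbours, as Gpr34 and Gpr82 both lie within Cask.

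Receptor genes had few exons. In 62 of 104 (59.6%) the transcript with most exons had 1 to 3, against 14.8% of all symbols. Within that class 41.9% of receptor genes and 53.7% of all symbols were active, and at 9 exons and over the shares were 63.6% and 80.1%.

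Other membrane receptor families, chosen after the data were seen, gave different shares of active entries. Olfactory receptors had 4 of 103 (3.88%), vomeronasal receptors 10 of 113 (8.85%), chemokine receptors 5 of 21 (23.8%), P2Y and prostanoid receptors 8 of 22 (36.4%), adhesion receptors 18 of 29 (62.1%) and Frizzled receptors 10 of 11 (90.9%). The 50% of the receptor genes described here lies between the P2Y and prostanoid and the adhesion receptors.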
